A study of Mus musculus with 8 samples.

Results

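C-type lectin receptors of myeloid cells are surface proteins through which macrophages, dendritic cells and neutrophils sense microbial sugars and lipids and the remains of dead cells. The 9 genes described here are Clec4n, Clec4d, Clec4e, Clec4a1, Clec4a2, Clec4a3, Clec5a, Clec7a and Clec12a. They were taken by symbol from the 22558 gene symbols of the study, and all 9 were listed in each of the 8 libraries. Transcript levels were given as FPKM, a measure of fragments relative to transcript length and library size.

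Libraries 5 to 8 were labelled infiltrating macrophages, cells that entered the retina, and libraries 1 to 4 were labelled microglia, the resident macrophages of neural tissue. Both populations came from injured retinas at day 7, and the animals were about 5 months old with a mixed background of C57BL/6 and 129. All mice of both groups carried Msi1-CreERT2/+, a tamoxifen-inducible Cre driven by Msi1, the Musashi-1 gene, and R26R-DTA/+, a diphtheria toxin A allele that Cre turns on and that is lethal to the cell. No uninjured or Cre-negative retina is among the groups used here, so the values describe 2 populations of one injured tissue. Macrophage titles name GFP. What GFP marks, how cells were sorted and whether libraries came from separate or pooled animals are not stated in the sources, so a p-value here reflects library-to-library spread that could be technical in part or in whole.

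These receptors fall into classes by how they signal. Dectin-2 (Clec4n), MCL (Clec4d) and Mincle (Clec4e) have short tails and signal through the Fc receptor gamma chain, encoded by Fcer1g, while MDL-1 (Clec5a) uses the adaptors DAP12 and DAP10, encoded by Tyrobp and Hcst. Dectin-1 (Clec7a), a receptor for fungal beta-glucan, carries an activating motif in its own tail and passes its signal to the kinase Syk and the adaptor Card9. DCIR (Clec4a2) and MICL (Clec12a) carry an inhibitory motif that recruits phosphatases such as SHP-1. Clec4a1 and Clec4a3 encode relatives of DCIR. Clec7a is also known in brain as a gene raised in microglia near amyloid plaques and other damage.

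All 9 genes lie on mouse chromosome 6, and coordinates here are of the mm9 build, from the deposited loci. Clec4a1 (chr6:122871866-122884637), Clec4a3 (chr6:122902533-122919896), Clec4a2 (chr6:123072708-123094017), Clec4n (chr6:123179861-123197042) and Clec4d (chr6:123212125-123225286) are on the plus strand and Clec4e (chr6:123231807-123239889) on the minus strand. These genes form the Dectin-2 cluster, which spans 368 kb. Clec12a (chr6:129300262-129315321, plus strand) and Clec7a (chr6:129411609-129422795, minus strand) bound a second window of 122.5 kb, the Dectin-1 cluster. Clec5a (chr6:40524897-40535804, minus strand) lies apart from both. The longest coding transcript has 7 exons for Clec5a and 6 for each of the other genes in the GENCODE annotation.

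Promoter sequences are shown for Clec12a and Clec7a, which bound the same cluster and have fold changes of opposite sign, and for Clec4d and Clec4e, adjacent genes transcribed toward each other. Each line gives the 250 bases before the RefSeq start, 5′ to 3′ on the gene's own strand in GRCm38.p6, with motif matches in capitals.
Clec12a: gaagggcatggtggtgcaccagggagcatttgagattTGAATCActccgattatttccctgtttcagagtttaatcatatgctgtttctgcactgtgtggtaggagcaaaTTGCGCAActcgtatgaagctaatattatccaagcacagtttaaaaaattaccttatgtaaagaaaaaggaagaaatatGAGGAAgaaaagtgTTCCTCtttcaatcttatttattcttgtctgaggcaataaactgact
Clec7a: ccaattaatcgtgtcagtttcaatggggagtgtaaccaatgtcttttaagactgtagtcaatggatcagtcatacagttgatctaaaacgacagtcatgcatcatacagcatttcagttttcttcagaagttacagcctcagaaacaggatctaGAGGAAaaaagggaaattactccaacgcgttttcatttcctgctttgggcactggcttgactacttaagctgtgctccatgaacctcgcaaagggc
Clec4d: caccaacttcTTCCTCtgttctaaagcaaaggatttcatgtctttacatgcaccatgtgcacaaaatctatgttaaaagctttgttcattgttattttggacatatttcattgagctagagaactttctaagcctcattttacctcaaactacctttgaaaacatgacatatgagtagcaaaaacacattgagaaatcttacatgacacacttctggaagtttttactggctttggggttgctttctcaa
Clec4e: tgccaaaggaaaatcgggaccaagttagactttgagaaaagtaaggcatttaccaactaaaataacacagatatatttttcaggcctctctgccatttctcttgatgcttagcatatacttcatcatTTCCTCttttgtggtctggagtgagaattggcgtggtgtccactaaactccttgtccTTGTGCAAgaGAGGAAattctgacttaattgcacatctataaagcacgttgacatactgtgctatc
In GRCm38.p6 these windows are chr6:129349994-129350243 (Clec12a, plus strand), chr6:129472780-129473029 (Clec7a, minus strand), chr6:123261857-123262106 (Clec4d, plus strand) and chr6:123289872-123290121 (Clec4e, minus strand).

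The motifs searched on both strands were the core of the myeloid factor PU.1 (GAGGAA), a C/EBP site (TTGCNCAA) and an AP-1 site (TGANTCA); a consensus NF-kB site was searched too. RefSeq promoters were matched for 8 of the 9 genes. GAGGAA was found in 6 of these 8, those of Clec5a, Clec4a1, Clec4d, Clec4e, Clec12a and Clec7a, against 23.1% of 27025 RefSeq promoters of the same length. TTGCNCAA was found in Clec4e and Clec12a, against 2.6% of all promoters. TGANTCA was found in Clec12a, against 6.87% of all, and the NF-kB site in 0 of the 8, against 1.4% of all. In the Clec12a sequence the capitals run from TGANTCA at 213 bases before the start, through TTGCNCAA at 140, to GAGGAA at 61 and, on the opposite strand, at 47. In Clec7a the only match is GAGGAA at 96 bases before the start, and in Clec4d it is GAGGAA on the opposite strand at 240. Clec4e holds GAGGAA at 56, and on the opposite strand GAGGAA at 123 and TTGCNCAA at 66. The TTGCNCAA match of Clec12a reads on both strands, and no other matches overlap. These are matches of letters and not measured sites.

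The libraries differed in ways that bear on every value below. Depth, estimated from the FPKM of 1 fragment, was about 21.4 to 24.5 M fragments in macrophages and 11.7 to 21.4 M in microglia, so that 1 fragment on a transcript of 2 kb was worth 0.022 to 0.046 FPKM. FPKM summed to 512101 in macrophage 6 and 207154 in macrophage 7. Genes at 1 FPKM or more numbered 8887, 5995, 8172 and 9514 in microglia 1 to 4 and 8822 to 10287 in macrophages. The 11 microglial marker genes summed to between 718 and 2436 FPKM in macrophages and between 2642 and 4034 FPKM in microglia, and 4 of the 11 (P2ry12, Sall1, Gpr34 and Sparc) were called lower in macrophages. Tmem119, a marker used to define microglia, stood at 106 to 365 FPKM in macrophages and 179 to 339 FPKM in microglia, which does not separate the populations. Monocyte markers summed to 1640 to 4585 FPKM in macrophages and 762 to 1317 FPKM in microglia. Most of both sums was Lyz2, at 1545 to 3335 FPKM in macrophages and 736 to 1243 FPKM in microglia (limma, adjusted p = 0.133). Of 10 tested monocyte markers 6 were called higher and 0 lower, against 1.65% and 0.695% of all genes. Fn1 went the other way (log2 fold change -1.01; limma, adjusted p = 0.49). Ccr2, the receptor that draws monocytes into tissue, was at 49.0, 53.0, 2.64 and 99.4 FPKM in macrophages 5 to 8 and at no more than 1.53 FPKM in microglia, so macrophage 7 stood apart. Erythroid genes summed to 160, 165, 2437 and 0.683 FPKM in microglia 1 to 4 and to 0.693 to 23.7 FPKM in macrophages. Muller glia genes summed to 50.7 to 74.7 FPKM in microglia and 8.21 to 28.0 FPKM in macrophages. Photoreceptor genes summed to 19.3 to 130 FPKM in microglia and 2.73 to 47.1 FPKM in macrophages. The part of such RNA in the receptor values was not tested. Y-linked transcripts summed to 0.0107 to 1.97 FPKM in macrophages, and to 25.8, 11.7, 16.5 and 0.0533 FPKM in microglia 1 to 4. Y-linked genes are carried by males, so male RNA was plain in microglia 1 to 3 and low in microglia 4 and the macrophages. Sex thus coincides with population in all libraries but microglia 4, and their effects cannot be fully told apart here. A fit with a Y-linked term, which leans on microglia 4 as the microglial side, is therefore given beside the receptors. With that term Sparc was still called, while P2ry12, Sall1 and Gpr34 were not, at log2 fold changes of -3.04, -4.12 and -2.79, against -3.03, -4.12 and -2.66 without it. Of the called monocyte markers, Ly6c2 and Plac8 were still called with it. Ccr2, Ly6c1, Chi3l3 and Ms4a4c were not, at 3.07, 4.30, 2.26 and 3.31, against 4.60, 4.57, 2.91 and 3.45 without it.

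Of the 9 receptors, Clec4n, Clec4d, Clec4a2 and Clec12a were called higher in infiltrating macrophages, and 0 were called lower. Differences were tested with limma on log2(FPKM + 1), and a gene was called where its Benjamini-Hochberg adjusted p over all 9352 genes tested was below 0.05. The calls cover 4 of the 8 receptors that could be tested, while 1.65% of all genes were called higher, 0.695% lower and 2.34% in either direction. Clec4n, Clec4d, Clec4a1 and Clec4a2 passed the filter on low values with all 4 macrophage libraries and no more than 1 microglial one, so the count of 4 in 8 is a description and lends no support. The median log2 fold change of the 8 was 1.94, against 0.37 for all tested genes; the all-gene median was 0.16 after median-of-ratios scaling, 0.48 with equal FPKM sums and -0.03 after quantile normalization. All macrophage libraries stood above all microglial ones for the same 4 receptors, in the deposited FPKM and under each of 3 scalings, against 5.69% of all genes in the deposited FPKM; for 0 receptors did all macrophage libraries stand below all microglial ones, against 1.95% of all genes. Fold changes were positive for 7 of the 8 tested receptors and 67.1% of all genes. Without macrophage 7 the same 4 receptors were called, and 198 of the 9352 genes were called higher. Without microglia 2 and 3 Clec4n was the only receptor called higher (log2 fold change 4.41; limma, adjusted p = 0.00103), against 1.13% of all genes, while Clec12a was at 2.35 (limma, adjusted p = 0.0747), Clec4a2 at 2.52 (limma, adjusted p = 0.0967) and Clec4d at 2.0 (limma, adjusted p = 0.11). In bulk RNA, fewer cells of a type and less RNA per cell cannot be told apart.

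**Figure D1:**
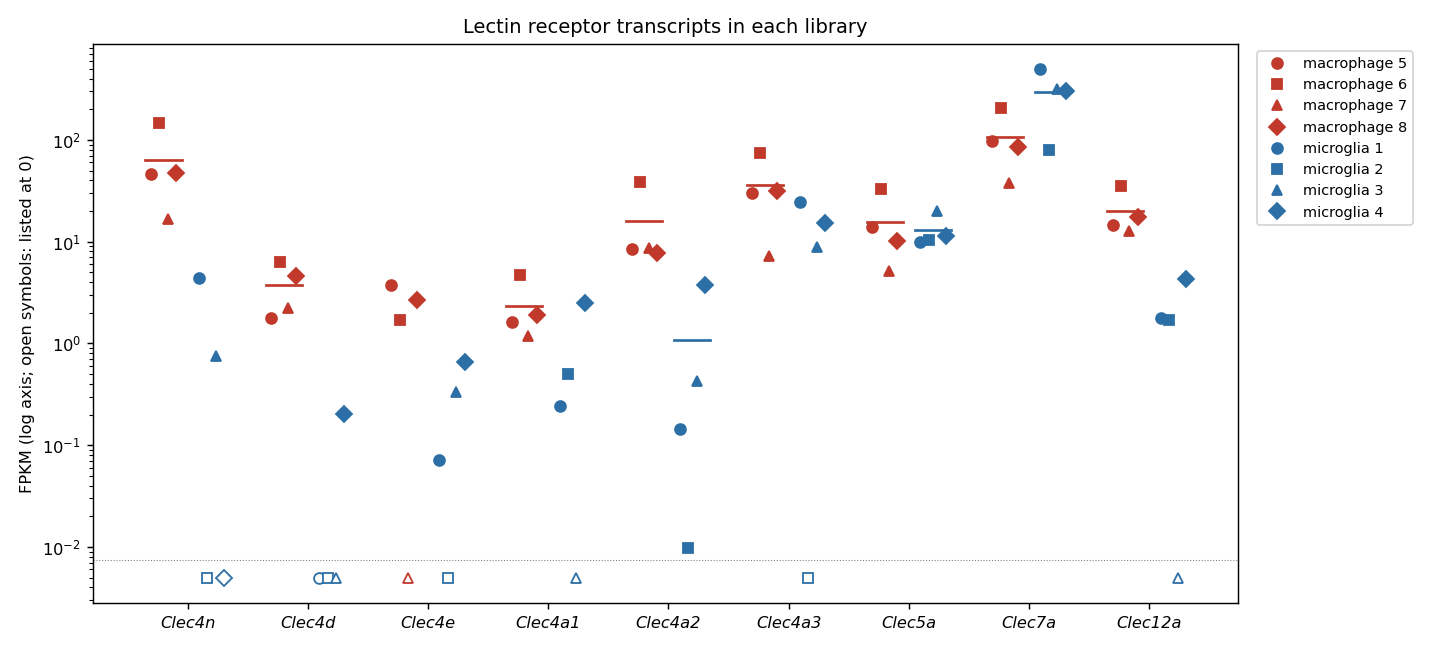
FPKM of the 9 lectin receptors (log axis) in macrophages 5 to 8 (red, left of each pair) and microglia 1 to 4 (blue, right); bars are means of 4 libraries, drawn where no library is listed at 0, and open symbols on the bottom line are values listed at 0. Clec4n, Clec4d, Clec4a2 and Clec12a have every macrophage library above every microglial one, while Clec7a is highest in microglia 1, 3 and 4.

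Of the activating receptors that pair with the Fc receptor gamma chain, Clec4n and Clec4d were called higher in macrophages and Clec4e was too low to be tested. Clec4n, the Dectin-2 gene whose product binds fungal mannans, was at 45.7, 146, 16.7 and 46.8 FPKM in macrophages 5 to 8, against 4.36, 0, 0.759 and 0 FPKM in microglia 1 to 4. The lowest macrophage library lay above the highest microglial one, and microglia 2 and 4 were listed at 0. The log2 fold change was 4.81 ± 0.74 (SE; 95% interval 3.27 to 6.34; limma, adjusted p = 0.000377), the 21st highest of 9352. The call was lost in 1 of 20 alternative limma fits. Without a filter on low values its adjusted p was 0.067 and with the Y-linked term it was 0.0162, at a log2 fold change of 5.31.

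Clec4d, which encodes MCL, a partner of Mincle in binding mycobacterial glycolipid, was low but separated the groups. It was at 1.79, 6.33, 2.22 and 4.57 FPKM in macrophages 5 to 8, against 0, 0, 0 and 0.203 FPKM in microglia 1 to 4. All macrophage values were above all microglial ones, and 3 of the 4 microglial values were listed at 0. Its log2 fold change was 2.06 ± 0.50 (SE; limma, adjusted p = 0.0233). Since 3 microglial values are 0, its size depends on the pseudocount, from 0.76 with a pseudocount of 5 to 4.68 with 0.1, and the call was lost in 9 of 20 alternative fits, among them those without microglia 1, microglia 3 or macrophage 8 and the fit with the Y-linked term (1.83, adjusted p = 0.773).

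Clec4e, which encodes Mincle, a receptor for mycobacterial cord factor and for a nuclear protein released by dead cells, did not show the separation of its neighbour. It was at 3.74, 1.70, 0 and 2.67 FPKM in macrophages 5 to 8 and at 0.0717, 0, 0.330 and 0.653 FPKM in microglia 1 to 4. Macrophage 7 was listed at 0, so the groups overlap. With 3 libraries at 1 FPKM or more it did not enter the limma test. The mean log2 difference was 1.08, with an exact two-sided permutation p of 0.143 (the smallest possible is 0.0286).

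MCL and Mincle are also expressed by neutrophils, and 4 of the 5 tested neutrophil markers had positive fold changes. The 12 neutrophil genes in the files summed to 57.9, 259, 152 and 89.1 FPKM in macrophages 5 to 8 and to between 27.4 and 37.8 FPKM in microglia. Of the 5 tested, S100a8, S100a9 and Retnlg were called higher, against 1.65% of all genes. With the Y-linked term S100a8 and S100a9 were still called while Retnlg was not (log2 fold change 3.84, against 3.51 without it; limma, adjusted p = 0.277). S100a8, an abundant protein of neutrophils and monocytes, was at 21.99, 92.0, 67.4 and 38.5 FPKM in macrophages and listed at 0 in the 4 microglial libraries. Among defining granule genes Ngp was listed at 0 in every library, and Camp, Ltf, Mpo and Elane did not exceed 1.14 FPKM in any. Mmp9, a gelatinase of neutrophil granules, was at 0, 4.45, 1.96 and 2.30 FPKM in macrophages 5 to 8 and listed at 0 in all microglia, and Mmp8, a granule collagenase, was at 0.987 to 6.30 FPKM in macrophages and 0 to 1.12 FPKM in microglia. Csf3r, the receptor for granulocyte colony-stimulating factor, went the other way, at 9.07 to 15.2 FPKM in macrophages and 26.0 to 36.3 FPKM in microglia. It made up most of the microglial sum of the neutrophil genes (log2 fold change -1.34; limma, adjusted p = 0.242). The part of neutrophil RNA in the lectin values was not tested.

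Among DCIR and its relatives in the set, Clec4a2 was called and Clec4a1 and Clec4a3 were not. Clec4a2 was at 8.51, 38.7, 8.70 and 7.70 FPKM in macrophages 5 to 8, against 0.144, 0.00972, 0.422 and 3.76 FPKM in microglia 1 to 4. Macrophage 6 was far above its group and microglia 4 far above its own, yet the groups did not overlap. The means were 15.9 ± 15.2 FPKM in macrophages and 1.08 ± 1.79 FPKM in microglia (SD, n = 4 each), and the log2 fold change was 3.0 ± 0.74 (SE; limma, adjusted p = 0.0275). The call was lost in 10 of 20 alternative fits, including those without microglia 1, microglia 3, macrophage 5, macrophage 6 or macrophage 8, and with the Y-linked term the fold change was 1.84 (adjusted p = 0.9999). Of the 36-base words in Clec4a2 transcripts, 9.11% occur in other coding genes, 4.45% in Clec4a4 and a smaller part in Clec4b1. Part of its FPKM thus depends on how shared reads were divided.

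Clec4a1 was at 1.61, 4.67, 1.17 and 1.90 FPKM in macrophages 5 to 8, against 0.245, 0.498, 0 and 2.47 FPKM in microglia 1 to 4. Microglia 4 stood above 3 of the macrophage libraries. The log2 fold change of 0.96 ± 0.54 did not pass the test (SE; 95% interval -0.16 to 2.08; limma, adjusted p = 0.419), and it was 0.01 with the Y-linked term. Clec4a3 had the highest median FPKM of the DCIR group in both populations. It was at 30.2, 74.1, 7.15 and 31.5 FPKM in macrophages 5 to 8, against 24.7, 0, 8.77 and 15.3 FPKM in microglia 1 to 4. The ranges overlapped, with macrophage 7 below 3 of the microglial libraries. Its log2 fold change was 1.81 ± 0.84 (SE; limma, adjusted p = 0.311), and without microglia 2, the library listed at 0, it was 0.81. With the Y-linked term it was 1.07.

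Clec12a, which encodes the inhibitory receptor MICL that binds uric acid crystals from dead cells, was at 14.6, 34.97, 12.8 and 17.6 FPKM in macrophages 5 to 8. In microglia 1 to 4 it was at 1.77, 1.70, 0 and 4.25 FPKM. The groups did not overlap, and the fitted log2 fold change was 2.96 ± 0.70 (SE; 95% interval 1.51 to 4.41; limma, adjusted p = 0.0206). The call was lost in 8 of 20 alternative fits, including those without microglia 3, macrophage 5, macrophage 6 or macrophage 8, and the fold change with the Y-linked term was 2.09 (adjusted p = 0.9999).

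Clec7a, the Dectin-1 gene, had the highest FPKM of the 9 in all 8 libraries, and it was the only one of the 8 tested with a negative fold change in the deposited FPKM. It was at 97.8, 208, 37.3 and 85.5 FPKM in macrophages 5 to 8, against 493, 80.4, 315 and 304 FPKM in microglia 1 to 4. Microglia 1, 3 and 4 were above every macrophage library, and microglia 2 lay among them. The means were 107 ± 71.9 FPKM in macrophages and 298 ± 169 FPKM in microglia (SD, n = 4 each). The log2 fold change of -1.46 ± 0.58 did not pass the test (SE; 95% interval -2.65 to -0.26; limma, adjusted p = 0.235). It was -2.0 without microglia 2 (adjusted p = 0.0632) and -1.72 after median-of-ratios scaling (adjusted p = 0.0517), and -1.71 with the Y-linked term (adjusted p = 0.9999). All 8 Clec7a values lie above the upper bound of their own deposited interval, which holds for 1 value of 1 other receptor, Clec12a in macrophage 6, so the scale of Clec7a is uncertain.

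Clec5a, whose product MDL-1 activates myeloid cells, was detected in every library of both populations. It was at 14.0, 32.9, 5.12 and 10.1 FPKM in macrophages 5 to 8, against 9.99, 10.5, 19.9 and 11.4 FPKM in microglia 1 to 4. Macrophages held both the highest and the lowest value. The means were 15.5 ± 12.1 FPKM in macrophages and 12.9 ± 4.71 FPKM in microglia (SD, n = 4 each). The log2 fold change was 0.02 ± 0.64, with a 95% interval of -1.29 to 1.33 that leaves room for a difference in either direction (SE; limma, adjusted p = 0.991). Its sign was negative under upper-quartile, median-of-ratios and quantile scaling and with the Y-linked term.

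**Figure D2:**
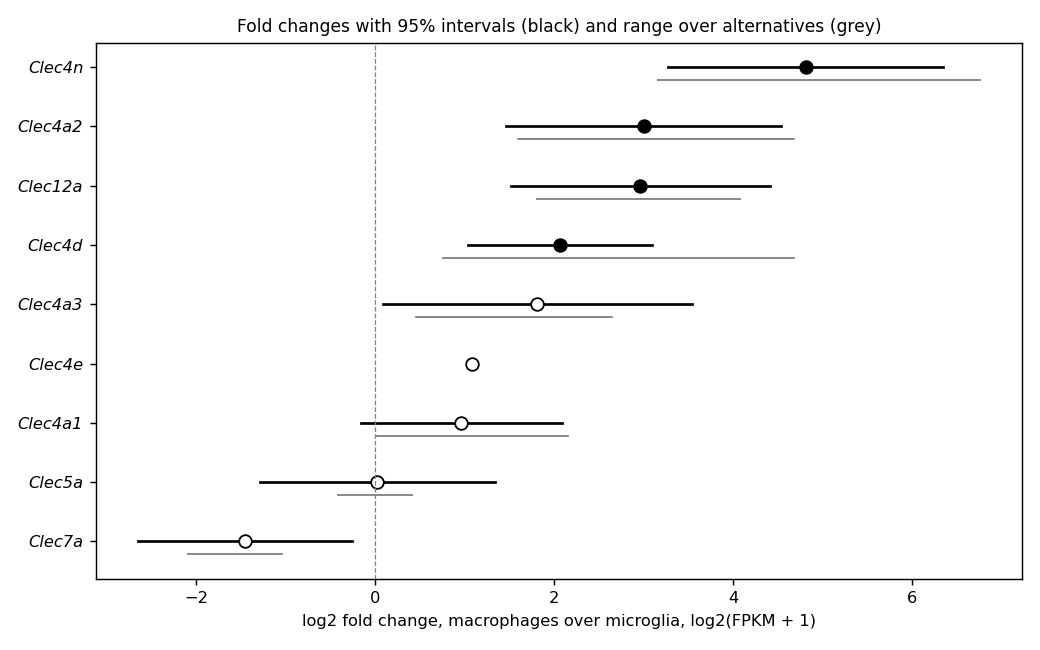
Log2 fold change of each receptor, macrophages over microglia (log2(FPKM + 1) values); filled points were called, black bars are 95% intervals of the limma fit and grey bars the range over the alternatives; Clec4e, which was not tested, is shown by its mean difference alone. The 4 called receptors lie between 2.06 and 4.81, Clec5a is at 0.02 and Clec7a at -1.46.

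Of the 36 receptor values in each population, 1 was listed at 0 in macrophages and 9 in microglia. Those of Clec4n, Clec4d, Clec4e and Clec4a3 in microglia 2 were among the 9. Microglia 2 had 5995 genes at 1 FPKM or more, the fewest of the 8 libraries. The share of values at 0 over all genes was not computed, so the receptor values at 0 are not read as absence. In macrophages 8 of the 9 receptors reached 1 FPKM in all 4 libraries, while in microglia Clec5a and Clec7a alone did so. Within macrophages the receptors kept much the same order of libraries: macrophage 6 was highest for 8 of the 9 and macrophage 7 lowest for 7. After equal-sum, upper-quartile or median-of-ratios scaling macrophage 6 was still highest for 6 and macrophage 7 lowest for 5.

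As shares of the summed FPKM of the 9 genes, which a single scaling factor per library does not change, the populations had different make-ups. The 9 genes summed to 218, 547, 91.1 and 208 FPKM in macrophages 5 to 8 and to 534, 93.1, 346 and 342 FPKM in microglia 1 to 4. Clec7a took 44.9%, 37.9%, 40.9% and 41.0% of that sum in macrophages 5 to 8, against 92.3%, 86.4%, 91.3% and 88.9% in microglia 1 to 4. These shares did not overlap, and microglia 2, whose Clec7a level was low, was close to the other microglia in share. Every Clec7a value lies above its own deposited interval, so the size of these shares is as uncertain as the scale of Clec7a.

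Clec4n took 21.0%, 26.7%, 18.3% and 22.5% in macrophages, against 0.816%, 0%, 0.220% and 0% in microglia. Clec12a took 6.69%, 6.39%, 14.0% and 8.45% in macrophages, against 0.331%, 1.82%, 0% and 1.24% in microglia. Clec4a3 took 13.8%, 13.6%, 7.84% and 15.1% in macrophages and 4.63%, 0%, 2.54% and 4.47% in microglia. For Clec4n, Clec12a and Clec4a3 the macrophage shares were all above the microglial ones, although the level of Clec4a3 overlapped. Clec5a took 6.41%, 6.01%, 5.62% and 4.85% in macrophages and 1.87%, 11.2%, 5.77% and 3.32% in microglia, which overlap. Per 100 FPKM of Clec7a there were 46.7, 70.4, 44.8 and 54.8 FPKM of Clec4n in macrophages 5 to 8, against 0.884, 0, 0.241 and 0 in microglia 1 to 4. Shares within a sum are linked, so a lower share of Clec7a raises the others, and the shares were not tested.

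**Figure D3:**
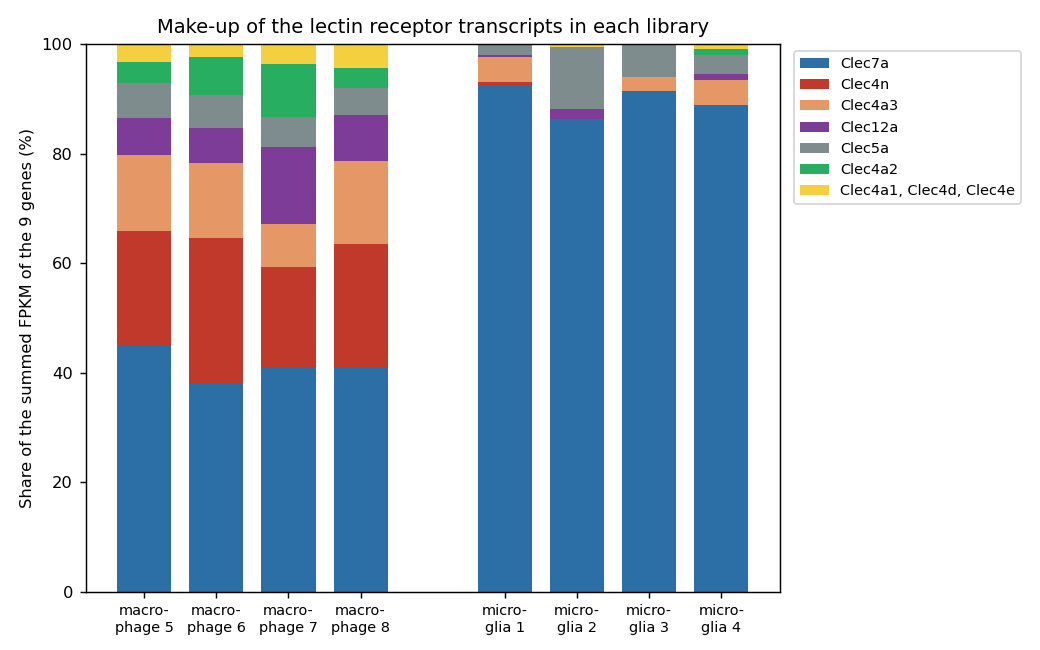
Share (%) of the summed FPKM of the 9 receptors taken by each, as stacked bars for macrophages 5 to 8 (left) and microglia 1 to 4 (right). Clec7a takes 37.9% to 44.9% in macrophages and 86.4% to 92.3% in microglia, and Clec4n is the next largest part in each macrophage library.

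The levels were not uniform along the clusters. Within the Dectin-2 window lie 3 lectin genes outside the set, Clec4a4, Clec4b1 and Clec4b2. Clec4b1, which encodes an activating relative of DCIR, was at 4.05 to 23.1 FPKM in macrophages and 0 to 1.75 FPKM in microglia, with a log2 fold change of 2.50 ± 0.68 (SE; limma, adjusted p = 0.0504). Clec4a4 was at 1.02 to 6.42 FPKM in macrophages and 0 to 3.40 FPKM in microglia (limma, adjusted p = 0.356). Clec4b2, which lies between Clec4a2 and Clec4n, did not exceed 0.0496 FPKM in macrophages or 0.490 FPKM in microglia.

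In the Dectin-1 window, Clec12b, Clec1b, Clec9a and Clec1a lie between Clec12a and Clec7a. Clec12b was listed at 0 in all macrophage libraries and did not exceed 0.326 FPKM in microglia. Clec9a, a receptor of cross-presenting dendritic cells, did not exceed 0.825 FPKM in macrophages or 0.0152 FPKM in microglia, and Clec1a did not exceed 0.814 and 0.0150 FPKM. Clec1b, known for its product CLEC-2 on platelets, was at 1.90, 0, 0.929 and 2.45 FPKM in macrophages 5 to 8, against 4.96, 0, 0 and 1.66 FPKM in microglia 1 to 4 (limma, adjusted p = 0.971). Clec12b, Clec9a and Clec1a thus stayed below 1 FPKM in all 8 libraries and Clec1b did not, while the genes at the window's ends had fold changes of opposite sign.

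Across the 8 libraries, which share 2 populations and their differences in composition, the receptors' log2(FPKM + 1) values were set beside those of all other tested genes. Most like Clec4n were Pcgf5 (Pearson r = 0.991), Kynu (0.990) and C130026I21Rik (0.989), and most like Clec4a2 were its cluster neighbour Clec4b1 (0.989), Sorbs3 (0.988) and Trim21 (0.983). Clec4a2 and Clec4b1 share some 36-base words, and the part of shared reads in their correlation was not tested. Most like Clec12a were Nt5c3 (0.989), Kcnn4 (0.979) and Mcm6 (0.975), and most like Clec4d were Gins3 (0.986), Plxna1 (0.984) and 1200011M11Rik (0.980). For Clec4a1 they were Ormdl1 (0.996), Alkbh8 (0.982) and the neighbour Clec4a4 (0.978), and for Clec4a3 Alg8 (0.991), Pdcd6ip (0.989) and Igsf6 (0.989). Clec5a was most like Ehd4 (0.973), Map2k1 (0.972) and Rnmt (0.962), and Clec7a most like Atp6v1c1 (0.982), which encodes a subunit of the lysosomal proton pump, Creg1 (0.960) and Arhgap25 (0.958). These are the highest of 9352 values over 8 libraries and are descriptions. Between receptors, Clec4d correlated with Clec12a at 0.930 and with Clec4n at 0.924, Clec4a2 with Clec12a at 0.929, and Clec7a with Clec12a at -0.463 and with Clec5a at 0.509.

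The adaptors through which these receptors signal had negative fold changes. None of Fcer1g, Tyrobp and Hcst was called, against 2.34% of all genes in either direction, and their median log2 fold change was -1.08. In a list this short 0 calls is not read as a result. Fcer1g, needed by Dectin-2, MCL and Mincle, averaged 1079 FPKM in macrophages and 2222 FPKM in microglia (log2 fold change -1.08; limma, adjusted p = 0.282). Tyrobp, an adaptor of MDL-1, averaged 1520 ± 747 FPKM in macrophages and 3948 ± 2035 FPKM in microglia (SD, n = 4 each), with a log2 fold change of -1.38 ± 0.48 (SE; limma, adjusted p = 0.152). Hcst averaged 22.1 FPKM in macrophages and 47.4 FPKM in microglia (limma, adjusted p = 0.477). In each of the 8 libraries Fcer1g had a higher FPKM than Clec4n, which needs it.

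Of 22 genes of the Syk and Card9 route, 21 were tested and 0 were called, against 2.34% of all genes called in either direction. Fold changes were positive for 16 of the 21, against 67.1% of all genes, with a median of 0.88. With so low a share over all genes, 0 calls in this list or in the shorter ones below is not read as a result. Syk itself, listed as Sykb, averaged 20.8 ± 6.84 FPKM in macrophages and 10.8 ± 4.40 FPKM in microglia (SD, n = 4 each; limma, adjusted p = 0.49). Card9 averaged 5.87 FPKM in macrophages and 2.59 FPKM in microglia (limma, adjusted p = 0.353). Prkcd, the kinase that links Syk to Card9 and the most abundant of the list, averaged 59.1 FPKM in macrophages and 29.7 FPKM in microglia (limma, adjusted p = 0.464). Among 5 tested Src family kinases, which phosphorylate the receptor motifs, 0 were called. The 3 phosphatases that inhibitory motifs recruit had 0 calls, and Ptpn6, which encodes SHP-1, averaged 168 FPKM in macrophages and 95.2 FPKM in microglia (limma, adjusted p = 0.475).

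Of 18 genes known to be induced by lectin receptor signalling, 11 were tested. Of the 11, 0 were called higher and 2, both chemokines, were called lower, against 1.65% and 0.695% of all genes. Ccl4 was at 124, 316, 113 and 60.7 FPKM in macrophages 5 to 8, against 512, 996, 898 and 666 FPKM in microglia 1 to 4. The groups did not overlap and the log2 fold change was -2.53 ± 0.50 (SE; limma, adjusted p = 0.00455). Ccl3 averaged 87.9 ± 60.3 FPKM in macrophages and 321 ± 73.0 FPKM in microglia (SD, n = 4 each; log2 fold change -2.02; limma, adjusted p = 0.0233). The Ccl4 call was lost in 3 of 20 alternative fits and the Ccl3 call in 11 of 20. Both were lost with the Y-linked term, at -2.49 for Ccl4 and -1.77 for Ccl3, and without microglia 2 and 3, at -2.18 for Ccl4 and -1.76 for Ccl3. The median log2 fold change of the 11 was 0.99, and 6 of the 11 were positive, against 67.1% of all genes. Among the positive ones Il1b averaged 57.2 FPKM in macrophages and 15.4 FPKM in microglia (limma, adjusted p = 0.163). Tnf went the other way, at 4.35 FPKM in macrophages and 13.4 FPKM in microglia on average (log2 fold change -1.69; limma, adjusted p = 0.301). Il6 and Cxcl1 were also negative and not called.

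Other lectin receptors outside the set, 30 listed and 13 tested, had a median log2 fold change of 1.18. Of the 13, 2 were called higher and 0 lower, against 1.65% and 0.695% of all genes. Mgl2, a galactose-type lectin of macrophages and dendritic cells, was at 31.3, 50.0, 9.78 and 33.8 FPKM in macrophages 5 to 8, against 0.0842, 0.0168, 0.148 and 0.0600 FPKM in microglia 1 to 4. All macrophage values were above all microglial ones, and the log2 fold change was 4.70 ± 0.69 (SE; limma, adjusted p = 0.000219). Clec10a, its close relative, was at 10.1, 16.9, 1.63 and 11.1 FPKM in macrophages and listed at 0 in all microglia (limma, adjusted p = 0.00591). The 10 dendritic cell markers summed to 87.4, 107, 16.9 and 218 FPKM in macrophages 5 to 8 and to between 2.58 and 34.9 FPKM in microglia. Of them 3 were tested and 0 called, against 2.34% of all genes in either direction. Ccr7, a homing receptor of mature dendritic cells, was listed at 0 in all microglia and was at 0.165 to 62.4 FPKM in macrophages. The part of dendritic cell RNA in these values was not tested.

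Receptors that use the same adaptors or motifs did not lean one way. Of 15 partners of the activating adaptors, 10 were tested, with a median log2 fold change of 0.05. Of the 10, 2 were called higher and 1 lower, against 1.65% and 0.695% of all genes. Sirpb1a, an activating receptor that uses DAP12, was at 38.8, 80.9, 8.41 and 25.6 FPKM in macrophages 5 to 8, against 0.215, 0, 0 and 0 FPKM in microglia 1 to 4 (log2 fold change 4.84; limma, adjusted p = 0.000268). Cd300e, a monocyte receptor, was at 1.26 to 4.58 FPKM in macrophages and listed at 0 in all microglia (limma, adjusted p = 0.0388), a call lost in 15 of 20 alternative fits, including each that left out 1 microglial library. Siglech, a microglial sialic acid receptor that uses DAP12, averaged 3.88 ± 3.51 FPKM in macrophages and 31.3 ± 17.8 FPKM in microglia (SD, n = 4 each), with a log2 fold change of -2.79 ± 0.68 (SE; limma, adjusted p = 0.0247) that was no longer called in 9 of 20, among them those without microglia 1, microglia 3, macrophage 5, macrophage 7 or macrophage 8. The 10 myeloid receptors with inhibitory motifs had 0 calls, against 2.34% of all genes in either direction, and a median of 0.12. Lilrb4, the most abundant, averaged 238 FPKM in macrophages and 271 FPKM in microglia (limma, adjusted p = 0.784).

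Of 8 genes listed for endogenous proteins bound by lectin receptors, 7 were tested. Of these Anxa1 and Vim were called higher, against 1.65% of all genes. Sap130, among the 7 and not called, shares the name of the nuclear protein that Mincle binds but is a different gene. The counts of 8 and 7 thus include it by name alone. Anxa1, which encodes an annexin that Dectin-1 binds on dying cells, was at 41.5, 45.9, 4.20 and 58.7 FPKM in macrophages 5 to 8, against 0.139, 0, 0.342 and 0.154 FPKM in microglia 1 to 4. The groups did not overlap (log2 fold change 4.60 ± 0.77 SE; limma, adjusted p = 0.000843). Vim, the intermediate filament gene, averaged 227 ± 122 FPKM in macrophages and 38.2 ± 10.8 FPKM in microglia (SD, n = 4 each; limma, adjusted p = 0.0266), and its call was lost in 11 of 20, among them those without microglia 2, microglia 3, macrophage 5, macrophage 6 or macrophage 8. Of 9 lineage factors 7 were tested and 0 called, against 2.34% of all genes in either direction. The gene for PU.1, listed as Sfpi1, averaged 149.5 FPKM in macrophages and 91.0 FPKM in microglia (limma, adjusted p = 0.559), and Cebpb, a regulator of Mincle, averaged 146 FPKM in macrophages and 98.3 FPKM in microglia (limma, adjusted p = 0.73). All 9 genes called in the lists around the receptors, Mgl2, Clec10a, Ccl3, Ccl4, Sirpb1a, Cd300e, Siglech, Anxa1 and Vim, were no longer called with the Y-linked term, under which 0.182% of all genes were called higher. Their log2 fold changes with that term were 4.38 for Mgl2, 2.71 for Clec10a, 4.52 for Sirpb1a, 1.57 for Cd300e, -2.70 for Siglech, 3.98 for Anxa1 and 1.65 for Vim, each of the same sign as without it.

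**Figure D4:**
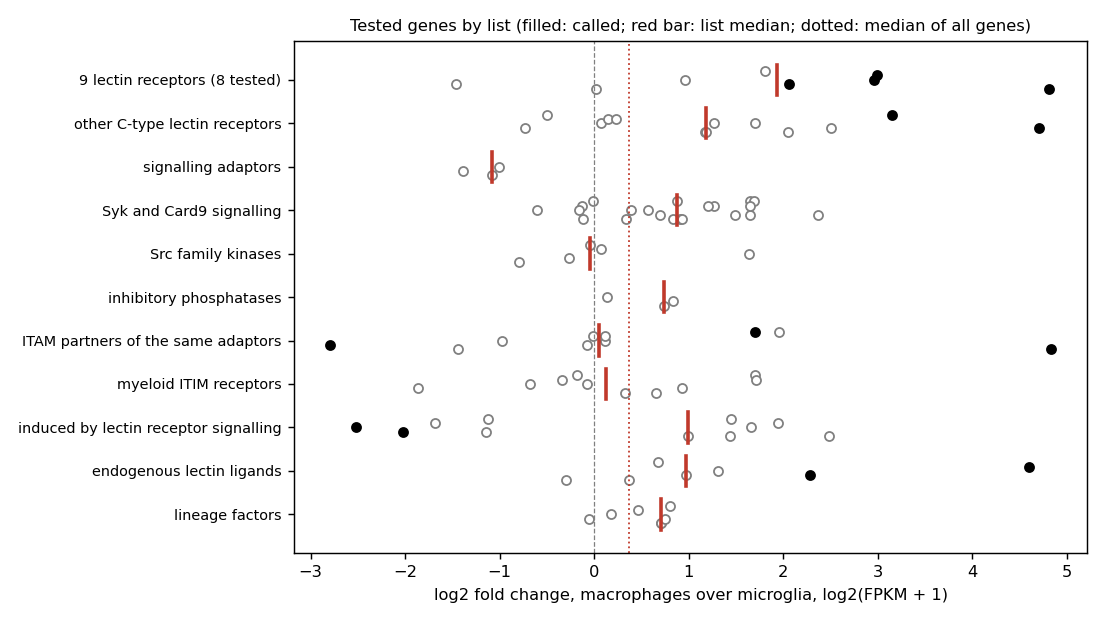
Log2 fold change, macrophages minus microglia, of each tested gene in the lists around the lectin receptors; filled points were called, red bars are list medians and the dotted line is the median of all tested genes, 0.37. The adaptors lie at a median of -1.08, the Syk and Card9 route at 0.88 and the other lectin receptors at 1.18.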

How the data were processed

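Messenger RNA was sequenced in 4 libraries of infiltrating macrophages and 4 of microglia, grouped by the tissue subtype in the labels. Per the labels' protocols, RNA was extracted with Sepazol and libraries were made with an Illumina mRNA kit. The submitters' processing notes name bcl2fastq 1.8.4, Cufflinks 2.1.1 and the mm9 build. No source used here gives the aligner, annotation or strand setting. The deposited values are FPKM per gene, made by the authors, with interval bounds that were not used because 9 of the 72 receptor values lie outside them.

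Because FPKM are not counts, count models were not used. FPKM corrects for depth and length but not for composition, so a few abundant transcripts lower all others, and an exact 0 can be a failed estimate. Depth per library was estimated from genes with a coding transcript of at least 800 bases, as the most frequent low product of FPKM and length less 150 bases. It is approximate and entered no test.

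Rows that share a symbol were summed, and 9 symbols with a failed status, none of them a receptor, were left out. Genes at 1 FPKM or more in at least 4 of 8 libraries were compared on log2(FPKM + 1) values in limma 3.58.1 (R 4.3.3), macrophages minus microglia, with an intensity trend, no covariate, two-sided tests and Benjamini-Hochberg adjustment over 9352 genes. This scale understates changes of low genes, and fold changes of genes listed at 0 depend on the pseudocount. The fit was also run on simulated data with normal noise, which lack the values listed at 0 that several receptors have. Tables were made with Python 3.11.15, pandas 2.3.3 and numpy 2.4.6.

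The receptors, gene lists, tests and alternatives were chosen with earlier results of these data known. Named genes are the 9 receptors, every called gene of each list around them or otherwise its most abundant tested gene, and for each tested receptor the 3 tested genes most like it. One gene that this rule names is not reported here. Fcer1g, Hcst, Sykb, Card9, Sfpi1, Il1b, Tnf, Il6, Cxcl1, Sap130, Csf3r, Tmem119, Ccr2, Ccr7 and the cluster neighbours were named besides. Older symbols were matched through RefSeq synonyms, and Ly6g was not matched. Alternatives were other pseudocounts (0.1 and 5), filters, 4 scalings, other empirical Bayes settings, leaving out each library or both microglia 2 and 3, a Y-linked term and an exact permutation test.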

Additional observations from a re-analysis of the deposited data

Results flagged for a closer look

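In each group of 4 libraries, the gap of the highest or lowest value to its nearest neighbour was set against the group's range, with Dixon's 95% critical value for 4 values as the threshold. Of 46 gene and group pairs, 7 passed. Chance flags about 1 in 20 groups of normal values, a rate that cannot be applied to this count, since FPKM are skewed and, for Clec4d and Sirpb1a in microglia, any value above 0 passes when the other 3 are listed at 0. Among the receptors, Clec4a2 was at 38.7 FPKM in macrophage 6, against 7.704 to 8.7 FPKM in the other macrophages, and at 3.763 FPKM in microglia 4, against 0.009719 to 0.4221 FPKM in the other microglia. Clec4d was at 0.2026 FPKM in microglia 4 and listed at 0 in the other microglia. Clec5a was at 19.95 FPKM in microglia 3, against 9.988 to 11.35 FPKM in the others. Outside the receptors, Ccl3 was at 178.4 FPKM in macrophage 6, against 56.24 to 60.65 FPKM in the other macrophages. Sirpb1a was at 0.2152 FPKM in microglia 1 and listed at 0 in the other microglia. Cebpb was at 166.9 FPKM in microglia 2, against 69.99 to 81.13 FPKM in the other microglia.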

How the results depend on the processing

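The count of called receptors, 4 of 8, was 2 with a pseudocount of 0.1 and 2 with a filter of 1 FPKM in 1 library. It was 1 without microglia 2 and 3, and 1 with the Y-linked term. Without a filter 0 of 9 were called, with 4 receptors and 1974 of 20454 genes at an unadjusted limma p below 0.05. Leaving out each library in turn gave 1 to 4, with 1 without microglia 3 and 1 without macrophage 8. The exact permutation test, which cannot give a p below 0.0286, called 0 receptors (4 at an unadjusted p below 0.05) and 0 genes (714 unadjusted). Calls over all genes, 219, were 136 with a pseudocount of 0.1, 50 without a filter and 147 with a filter of 1 FPKM in 1 library. They were 335 with equal FPKM sums, 164 without microglia 2 and 3, 25 with the Y-linked term, and 119 to 258 with each library left out. The share of calls that were higher in macrophages was 70.3%, and it was 59.5% with upper-quartile scaling, 55.4% when scaled by the median of ratios, 53.4% after quantile normalization and 49.7% without macrophage 6.

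The log2 fold change of Clec5a changed sign, to -0.10 with upper-quartile scaling, -0.24 when scaled by the median of ratios, -0.20 after quantile normalization and -0.16 with the Y-linked term, and it ranged from -0.42 to 0.40 with each library left out. The causes were not tested. Over the 9 receptors and 15 genes that the naming rule took from the lists, 374 values kept direction and side of the threshold, 96 lost the call, 6 gained it and 9 changed sign, all 9 of them for Clec5a. Among the cluster neighbours, with the Y-linked term, Clec4a4 was at -0.11 (1.17 without it) and Clec1b at -0.06 (0.07 without it). No paired analysis was possible because the populations share no replicate numbers. Whether depth sets the values listed at 0 was not tested; 1 fragment on a transcript of 2 kb was worth at most 0.046 FPKM in any library.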
